A study of Homo sapiens with 54 samples.

Results

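High-dose cisplatin was examined in olaparib-resistant SUM1315 breast cancer cells, called OlaR cells. The libraries were chosen by their labels as the 3 replicates given 25 µM olaparib with 4 µM cisplatin and the 3 replicates given 25 µM olaparib alone, which makes 6 of the 54 RNA-seq libraries of the series. SUM1315 is a triple negative breast cancer line with a BRCA1 mutation and, by the study's account, mutant p53, and the OlaR cells are 1 adapted line that was kept in slowly raised olaparib for months. Both groups were therefore in 25 µM olaparib, and cisplatin was the agent that differed between them. Doses are in µM as the sample titles and the study's methods give them, while the protocol labels write mM, and the labels give overnight treatment for the parental cells and no duration for the OlaR cells. Olaparib is an inhibitor of the PARP enzymes, and cisplatin (CDDP) is a platinum drug. OlaR cells given 25 µM olaparib with 2 µM cisplatin (3 libraries) serve for comparison. So do parental cells given 8 µM olaparib with or without 4 µM cisplatin (6 libraries). The fit took all 27 SUM1315 libraries. Its other groups were parental cells untreated, given 2 or 4 µM cisplatin alone, or given 8 µM olaparib with 2 µM cisplatin. The untreated cells and those given 4 µM cisplatin alone also serve in 1 alternative. The labels do not say that replicates were separate cultures, so that p-values measure the spread between these libraries only.

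Cisplatin binds neighbouring bases within a DNA strand and across strands, and such adducts stop replication forks and elongating RNA polymerase. Cross-links are removed by nucleotide excision repair, the Fanconi anemia pathway and homologous recombination, the last of which depends on BRCA1 and BRCA2. DNA damage also induces p53 targets, NF-κB targets and stress response genes of the ATF4 and AP-1 families in many cell types.

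The table gave each gene a normalised read count, which is the number of reads scaled to a library size common to all libraries. The reads behind the values came to 3900438, 3446613 and 3775132 in the OlaR replicates without cisplatin and to 4665505, 4203293 and 3491737 in the replicates with 4 µM cisplatin. The counts of both groups therefore rest on a similar depth. Pairs of replicates differed beyond what counting noise alone gives, for which the chi-square over its degrees of freedom would be near 1. It was 2.41 to 2.63 without cisplatin and 3.31 to 6.43 at 4 µM. Replicate 1 at 4 µM was in both pairs with the larger values, 6.43 and 4.48.

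The labelled cell type was looked at through its defining markers. PGR had 0 reads in all 6 libraries, and ESR1 had 2, 3 and 2 reads without cisplatin and 0, 0 and 0 reads with it, so both hormone receptor genes were at or near the limit of detection and no fold is given for them. ERBB2 was low, at 53.2, 52.5 and 57.0 without cisplatin and 57.1, 50.9 and 60.7 with it. VIM, which encodes the mesenchymal filament protein vimentin, was high at 9210, 8820 and 9530 without cisplatin and at 8220, 8230 and 8280 with it. EPCAM, CDH1 and KRT19 had 2 reads or fewer in every library, while the epithelial keratin genes KRT8, at 75.6, 56.3 and 110 against 80.1, 78.4 and 110, and KRT18, at 320, 333 and 271 against 350, 306 and 285, were expressed in all 6. Of the basal keratins KRT17 had high counts while KRT5 and KRT14 were low. The markers PTPRC, LYZ, HBB and VWF of blood and endothelial cells had 2 reads or fewer in every library. PECAM1, with the highest counts of that list, stood between 44.95 and 71.7 without cisplatin and between 48.8 and 111 with it. The 2 tested members of the 11 listed, PECAM1 and CD68, summed to 80.6, 45.8 and 79.5 without cisplatin and 87.9, 50.6 and 116 with it, and neither passed the test.

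Cisplatin at 4 µM lowered more genes than it raised. Of 13133 genes tested, 122 were called higher (0.929% of all genes tested) and 380 were called lower (2.89%), where a call needs an adjusted p of at most 0.05 and a fold change of at least 2. With no limit on the size, 937 genes (7.13%) passed the test as higher and 1262 (9.61%) as lower. The median log2 fold change over all genes tested was 0.00. The 3 libraries of one group lay fully above or below the other 3 for 107 of the 122 genes called higher and for 357 of the 380 called lower. The test itself selects for such separation, so these counts describe the called genes and add no support to the calls. In bulk RNA, fewer transcripts per cell and fewer cells that hold a transcript cannot be told apart. The count of higher genes leaned on replicate 1 at 4 µM, since it was 77 without that library, and 63 of those genes were among the 122. Called genes were often scarce, as 34 of the 122 higher and 177 of the 380 lower genes reached a mean of 50 in the group where they were higher.

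Long genes made up a larger share of the genes called lower than of all genes tested. Genomic span, the distance from a gene's first to its last base, had a median of 29.3 kb over the 12920 tested genes with a known position. It was 241 kb for genes called lower and 20.2 kb for genes called higher. Genes of 300 kb or more were 42.0% of those called lower and 3.61% of all tested. Among the 467 genes of that span, 154 were called lower (33.0%) and 2 higher. The median log2 fold change of these 467 genes was −0.76. In the next bin, 100 to 300 kb, 92 of 1900 genes were called lower (4.84%) and the median was −0.12. Shorter genes stood close to the median of all genes, with 47 of 3995 called lower (1.18%) and a median of 0.07 at 30 to 100 kb, 27 of 3612 (0.748%) and 0.05 at 10 to 30 kb, and 47 of 2946 (1.60%) and −0.02 under 10 kb. Within the long genes, 73 of 292 at 300 to 500 kb were called lower (25.0%, median −0.61) and 67 of 143 at 500 to 1000 kb (46.9%, median −1.14). The 32 genes of 1000 kb or more did not go further, with 14 called lower (43.8%) and a median of −1.08. These medians moved with the filter on low values. With no such filter, where 22224 genes were tested, the 300 kb bin stood at −0.47 and 19.2% were called lower.

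**Figure D1:**
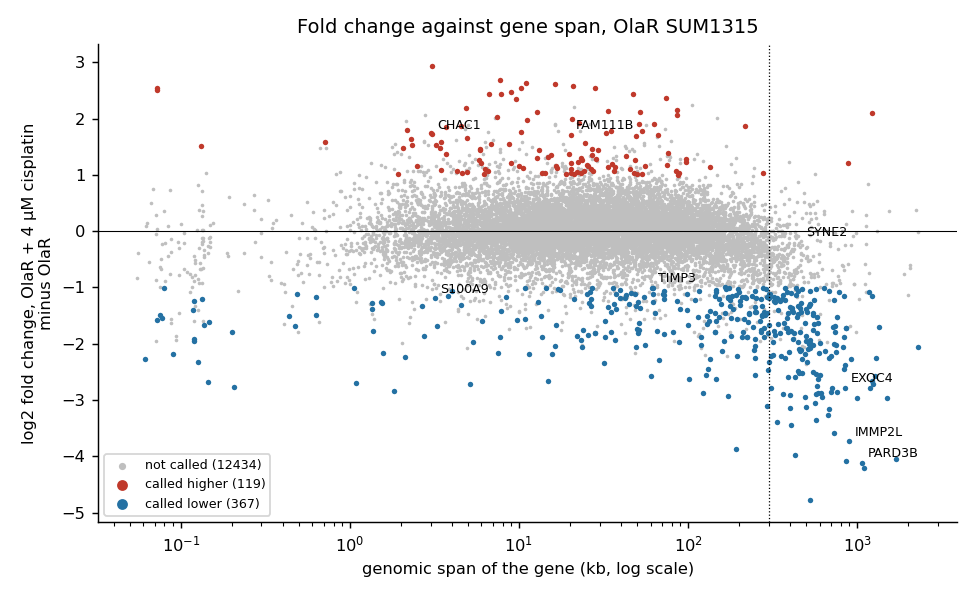
Log2 fold change with 4 µM cisplatin in OlaR cells against genomic span (kb, log scale), with 1 point for each tested gene of known position and the dotted line at 300 kb. To the right of the line 154 of 467 genes were called lower (blue) and 2 higher, and 154 of the 367 genes called lower lie there (42.0%).

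The fall of long genes was seen in each library. Taken from the mean of the OlaR libraries without cisplatin, the median log2 difference of the 467 genes of 300 kb or more was −0.74, −0.82 and −0.76 in the 3 libraries at 4 µM. It was −0.33, −0.33 and −0.42 in the 3 libraries at 2 µM and 0.01, −0.01 and −0.01 in the libraries without cisplatin themselves. The 3 dose groups thus did not overlap, and the libraries at 2 µM lay between the others. In the 100 to 300 kb bin the libraries at 4 µM stood at −0.10, −0.12 and −0.14, below those at 2 µM with −0.05, −0.02 and −0.06. The doses share the libraries without cisplatin as their reference.

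**Figure D2:**
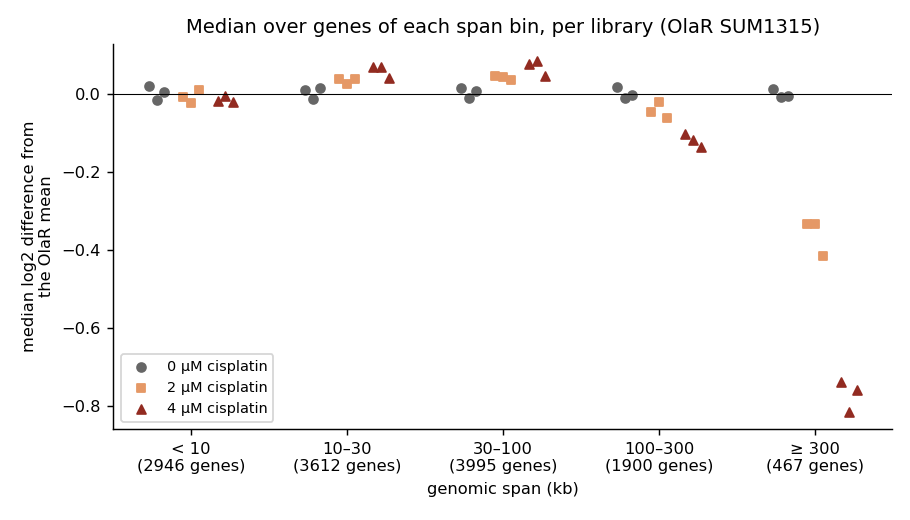
Median log2 difference from the OlaR mean over the genes of each span bin (kb), with 1 point for each library and 3 libraries for each cisplatin dose. The points separate by dose among genes of 300 kb or more, from about 0.01 without cisplatin to −0.82 at the lowest library of the 4 µM group.

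PARD3B, a polarity gene that spans 1075 kb on chromosome 2, fell most among the genes with a mean of at least 50 that did not overlap between groups. Its values were 70.4, 67.0 and 80.3 without cisplatin and 4.96, 7.67 and 0.479 with 4 µM, a log2 fold change of −4.11 (SE 0.51, adjusted p = 5.33e-07). Every library without cisplatin lay far above every library with it, and the latter held 4, 6 and 0 reads. IMMP2L, which encodes a peptidase of the mitochondrial inner membrane and spans 899.8 kb of chromosome 7, went from 130.3, 129.6 and 118 to 16.7, 3.53 and 9.85 (log2 fold change −3.73, SE 0.36, adjusted p = 2.79e-09). The groups were again fully apart. SCFD2, a Sec1 family gene of 493 kb, gave 104, 141 and 196 without cisplatin and 27.7, 15.4 and 12.7 with it (log2 fold change −2.94, SE 0.27). GMDS, an enzyme of GDP-fucose synthesis with a span of 622 kb, went from 254, 257 and 207 to 27.6, 37.2 and 26.7, also −2.94 (SE 0.23). CDK14, a cyclin-dependent kinase of 614 kb, went from a mean of 147.7 (SD 30.4, n = 3) to 19.96 (SD 8.21, n = 3), a log2 fold change of −2.88 (SE 0.24). In all 3 genes the highest library with cisplatin lay far below the lowest without it.

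The chromatin gene SMYD3, a lysine methyltransferase of 758 kb on chromosome 1, had values of 159, 221 and 208 without cisplatin and 37.6, 23.6 and 19.4 at 4 µM. This was a log2 fold change of −2.86 (SE 0.23, adjusted p = 5.18e-11). BCAS3, 715 kb on chromosome 17, went from 146, 150.0 and 171 to 20.1, 29.0 and 17.3 (−2.79, SE 0.19, adjusted p = 2.33e-12). Neither gene's groups overlapped. The other genes among the 12 strongest falls were TRAPPC9 (log2 fold change −3.59), THSD4 (−3.16), NCKAP5 (−2.96), CADPS2 (−2.90) and TTC28 (−2.86), with spans from 568 kb for CADPS2 to 1003 kb for NCKAP5. All 12 spanned more than 490 kb. Their values at 4 µM rest on few reads, from 0 to 31 in a library.

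Genes of common fragile sites, which are large late-replicating genes that break under replication stress, were part of this set. Of 33 listed genes 22 were tested, 9 were called lower (40.9%, against 2.89% of all genes tested) and 0 higher. With no limit on size 13 passed as lower, where 9.61% of all genes did. The list's median was −0.80, beside −0.38 at 2 µM and 0.00 over all genes at 4 µM. EXOC4, an exocyst subunit of 848 kb, went from 386, 349 and 318 to 74.2, 33.2 and 50.7 (log2 fold change −2.78, SE 0.19, adjusted p = 1.77e-12). DPYD, the enzyme that starts pyrimidine breakdown, went from 73.3, 55.5 and 62.6 to 15.8, 12.2 and 7.51 (−2.38, SE 0.21). PTPRG, a receptor tyrosine phosphatase, went from 99.7, 142 and 145 to 44.4, 30.9 and 43.0 (−1.68, SE 0.20). None of the 3 genes had overlapping groups. FHIT and WWOX, both tumour suppressors and chosen here after their values were seen, went from 21.6, 41.7 and 23.5 to 1.39, 3.92 and 3.19 and from 65.1, 90.4 and 65.2 to 38.5, 34.4 and 40.0. The fall of FHIT was called (−2.97, SE 0.70) and that of WWOX passed the test with a smaller change (−0.93, SE 0.29).

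Not all long genes fell. The tested genes of 300 kb or more with the highest counts were SYNE2, SH3KBP1, SND1 and MAST4. SYNE2, which encodes a giant protein of the nuclear envelope, had values of 2734, 2841 and 2665 without cisplatin and 2367, 2367 and 2574 with it (log2 fold change −0.17, SE 0.11, adjusted p = 0.292). SH3KBP1, an adaptor in receptor endocytosis, had 2467, 2673 and 2464 against 2546, 2228 and 2381 (−0.09, SE 0.09). MAST4, a kinase gene of 573 kb, had 1786, 1866 and 1792 against 1720, 1775 and 1947, with a log2 fold change of 0.00 and an SE of 0.08. These 3 genes did not pass the test. SND1, a coactivator and RNA-binding protein gene of 440 kb, fell from 2305, 2082 and 2210 to 1014, 1150 and 1236 (−0.96, SE 0.10, adjusted p = 3.18e-08), just short of the fold limit. Its call was gained without replicate 3 at 4 µM, where the value was −1.02. The 2 genes of this span called higher, ADGRL3 and KCNIP4, were scarce and were picked out after their values were seen. ADGRL3 had 11.3, 20.4 and 7.57 without cisplatin and 28.7, 26.2 and 33.2 with it, and KCNIP4 had 0.468, 10.3 and 3.55 against 23.2, 9.30 and 23.2 with overlapping groups.

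The strongest rise among genes with a mean of at least 50 and no overlap was that of CHAC1, an enzyme that degrades glutathione and a target of the ATF4 stress pathway. CHAC1 had 26.7, 29.2 and 27.3 without cisplatin and 66.4, 130.2 and 95.8 with 4 µM. Every treated library was above every control, at a log2 fold change of 1.73 (SE 0.18, adjusted p = 1.76e-08). CTH, which makes cysteine from cystathionine, rose from 24.9, 23.1 and 50.5 to 77.1, 86.1 and 67.9 (1.29, SE 0.26). ATF3, a stress-induced transcription factor, rose from 84.7, 86.9 and 63.0 to 190.8, 189 and 146 (1.16, SE 0.18). One control library of CTH was higher than the others, though still below all treated ones, and ATF3 showed a wide gap. In the list of ATF4 integrated stress response genes 30 were tested, 3 were called higher (0.929% of all genes were) and 1 lower, 11 passed as higher and 2 as lower (7.13% and 9.61% of all genes did), and the median was 0.28. Those that passed with a smaller rise were NUPR1, TRIB3, DDIT3, PPP1R15A, CEBPG, PSAT1, SLC7A11 and ATF4 itself. SLC7A5, a large neutral amino acid transporter of the same list, went the other way, from 2018, 2086 and 2010 to 862, 1152 and 986 (−1.04, SE 0.13, adjusted p = 3.44e-07). Its fold was under the limit (−0.93) without replicate 1 at 4 µM. VEGFA also fell, at 1085, 1174 and 1222 against 920.4, 785 and 858 (−0.44, SE 0.09).

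The promoters of CHAC1 and ATF3 are shown, chosen among the called stress genes because both hold the letters TGATGNAA, the conserved core of the element bound by ATF4 with its C/EBP partners. The sequences are from RefSeq on GRCh38.p14, plus strand, with the match on either strand in capitals. CHAC1 is at chr15:40953221-40953314 and ATF3 at chr1:212565171-212565268, upstream of the start site.
CHAC1: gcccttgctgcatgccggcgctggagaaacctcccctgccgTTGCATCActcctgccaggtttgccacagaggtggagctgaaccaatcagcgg
ATF3: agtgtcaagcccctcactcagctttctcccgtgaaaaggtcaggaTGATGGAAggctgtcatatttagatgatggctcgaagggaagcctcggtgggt
In the 250 bases before the start site, the letters occurred in 4 of the 25 promoters at hand for the tested stress response genes. They occurred in 870 of 27305 promoters over the same 250 bases (3.19%). A match describes the sequence and does not show that a factor was bound.

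Part of the NF-κB targets and chemokines rose. BIRC3, an inhibitor of apoptosis and a known NF-κB target, had 242, 344 and 244 without cisplatin and 676, 525.5 and 506 with 4 µM, a log2 fold change of 1.046 (SE 0.13, adjusted p = 2.74e-07). All treated libraries were above all controls. The fold was just under 2 without replicate 1 (0.96) or replicate 3 (0.96) of the controls and without replicate 1 at 4 µM (0.92), while the adjusted p stayed at or below 1.37e-05. TRAF1, a signalling adaptor of the TNF receptors, had 25.97, 28.2 and 15.9 against 78.8, 35.8 and 43.8 (1.10, SE 0.34, adjusted p = 0.0219). Its adjusted p was 0.128 without control replicate 3 and 0.174 without replicate 1 at 4 µM. In the NF-κB feedback and survival list, 28 were tested, 2 were called higher (7.14%, against 0.929%) and 0 lower, 10 passed as higher and 1, BCL3, as lower (7.13% and 9.61% of all genes did), and the median was 0.21. The 8 that passed with smaller rises included TNFAIP3, NFKBIZ, REL and BIRC2.

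CCL20, a chemokine that draws CCR6-bearing lymphocytes, had 35.3, 28.7 and 33.4 without cisplatin and 119.8, 72.1 and 70.6 with it (log2 fold change 1.36, SE 0.28, adjusted p = 8.63e-04). CXCL1, a neutrophil chemokine, had 1170, 1089 and 1093 against 2400, 2255 and 2097 (1.01, SE 0.11, adjusted p = 4.74e-08). LIF, a cytokine of the IL-6 family, had 65.4, 45.5 and 55.9 against 132.5, 134 and 97.0 (1.11, SE 0.34, adjusted p = 0.0240). In the 3 genes the lowest treated library was above the highest control. CXCL1 stayed close to the fold limit, at 0.99 without control replicate 2, 0.99 without control replicate 3 and 0.96 without replicate 1 at 4 µM. LIF had an adjusted p of 0.100 without control replicate 2, 0.0577 without control replicate 3, 0.0857 without replicate 1 at 4 µM and 0.0770 without replicate 2 at 4 µM. LIF also overlaps an antisense gene, LIF-AS1, and its reads could come from either. Over the list of chemokines and cytokines, 28 were tested, 3 were called higher (10.7%, against 0.929% of all genes) and 0 lower, 10 passed as higher (7.13% of all genes did) and 1, CXCL11, as lower, and the median was 0.34. CXCL8, chosen here for its high counts after its values were seen, rose from 7430, 6569 and 8095 to 12260, 10930 and 10290 (0.60, SE 0.15).

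The promoters of CXCL1, CCL20 and BIRC3 are shown because members of these lists often hold κB letters, searched on both strands as GGANTTTCC or GGGNTTTCC. They are RefSeq sequences on GRCh38.p14, plus strand, at chr4:73869270-73869368, chr2:227813718-227813816 and chr11:102317240-102317338, upstream of each start site, with the matches in capitals.
CXCL1: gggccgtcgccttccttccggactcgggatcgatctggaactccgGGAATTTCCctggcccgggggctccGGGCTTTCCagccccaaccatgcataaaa
CCL20: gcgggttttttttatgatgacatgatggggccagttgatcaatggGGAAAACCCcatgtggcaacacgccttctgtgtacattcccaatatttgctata
BIRC3: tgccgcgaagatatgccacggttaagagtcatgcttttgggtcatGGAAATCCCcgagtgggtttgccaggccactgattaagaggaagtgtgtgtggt
In the 250 bases before the start site, such letters occurred in 11 of the 19 promoters at hand for tested chemokines and cytokines. They occurred in 11 of 25 for the NF-κB list, beside 846 of 27305 promoters over the same 250 bases (3.10%).

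**Figure D3:**
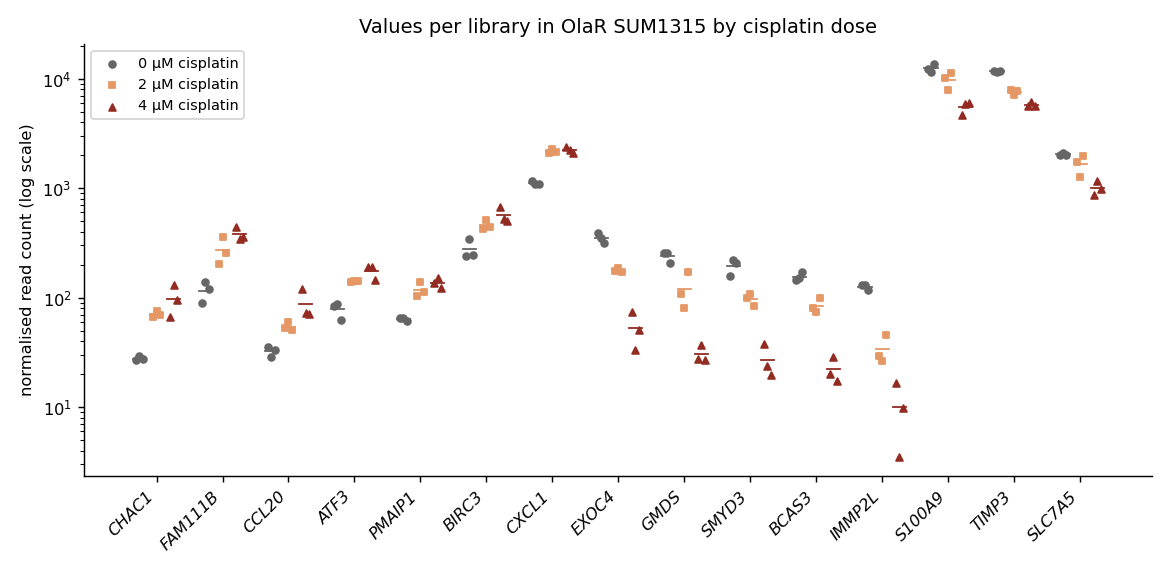
Normalised read count (log scale) of 15 genes in each OlaR library at 0, 2 and 4 µM cisplatin, with 1 point for each library and a line at the mean of 3. CHAC1 to CXCL1 were higher at 4 µM than without cisplatin in every library, and EXOC4 to SLC7A5 were lower.

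Some genes of DNA replication rose. FAM111B, a protease of the replication machinery, had the second strongest rise of the genes listed first, from 90.2, 139 and 119 to 439, 344 and 354.5 (log2 fold change 1.71, SE 0.22, adjusted p = 9.89e-07). CLSPN, which encodes the checkpoint mediator claspin, rose from 472, 350 and 347 to 1000, 620.0 and 756 (1.01, SE 0.20). Neither gene's groups overlapped. CLSPN was under the fold limit without control replicate 2 (0.94) or 3 (0.93) and without replicate 1 at 4 µM (0.83). Of 56 replication genes tested, 2 were called higher (3.57%) and 0 lower, 20 passed as higher and 1, POLD1, as lower, with a median of 0.30. Over all genes tested 0.929% were called higher, 7.13% passed as higher and 9.61% as lower. FEN1, the flap endonuclease, rose from 1225, 1004 and 1137 to 1832, 1896 and 1698 (0.69, SE 0.18, adjusted p = 0.00695). RRM1, RRM2, MCM3, MCM4, CDC6, CDT1, PRIM1 and PCNA were among the others that passed. Of 29 E2F factors and G1/S cyclins, 1 was called higher, 4 passed as higher and 2 as lower, and the median was 0.20. The called member CCNE2, cyclin E2, had 19.7, 28.5 and 25.4 against 45.5, 53.3 and 70.2 (1.16, SE 0.36, adjusted p = 0.0234), but its adjusted p was 0.0989 without control replicate 1, 0.0511 without control replicate 3 and 0.101 without replicate 3 at 4 µM. CCNE2 also shares its 3′ end with INTS8 on the other strand.

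Of 44 homologous recombination and Fanconi anemia genes tested, 2 were called higher and 2 lower (4.55% each, against 0.929% and 2.89% of all genes). With no limit on size 14 passed as higher and 2 as lower (7.13% and 9.61% of all genes did), and the median was 0.37. BRCA2, a core factor of homologous recombination, had 44.1, 63.1 and 65.7 without cisplatin and 126.6, 99.5 and 140.1 with it (log2 fold change 1.08, SE 0.20, adjusted p = 3.20e-04). ZGRF1, a helicase gene, had 55.0, 15.9 and 31.1 against 69.8, 68.3 and 78.3 (1.23, SE 0.30). Both genes were higher in all treated libraries, and the controls of ZGRF1 were spread widely. BRCA2 stood at 0.90 without control replicate 1 and at 0.97 without replicate 3 at 4 µM, and ZGRF1 had an adjusted p of 0.0740 without control replicate 2. RAD51B, a homologous recombination gene that spans 863 kb, fell from 57.1, 62.8 and 72.1 to 23.3, 23.9 and 11.5 (−1.72, SE 0.32). FANCC, a core complex gene of 219 kb, fell from 69.0, 77.2 and 70.6 to 36.9, 31.4 and 26.9 (−1.17, SE 0.23). RAD51AP1, which promotes strand invasion, rose from 270.2, 286 and 290.1 to 550.4, 461 and 408 (0.73, SE 0.14, adjusted p = 3.04e-04).

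Among PARP family, 53BP1 axis and checkpoint genes, 37 were tested, 0 were called, 9 passed as higher and 1, TIPARP, as lower, with a median of 0.28. Over all genes 7.13% passed as higher and 9.61% as lower. RIF1, a 53BP1 effector that protects DNA ends and that overlaps NEB on the other strand, rose from 440, 598.5 and 567 to 958, 775 and 934 (log2 fold change 0.74, SE 0.12). TOPBP1, an activator of the kinase ATR, rose from 311, 218.5 and 299 to 477, 349.7 and 396 (0.57, SE 0.14). Neither gene's groups overlapped. PARP1, the target of olaparib, had 1781, 1829 and 1680 against 1909, 1800 and 1737 (0.04, SE 0.09, adjusted p = 0.803), a difference within the spread of replicates. POLH, the translesion polymerase eta, whose 3′ end overlaps GTPBP2, had 324, 249.5 and 279.9 against 203, 264 and 291 with overlapping groups (−0.18, SE 0.15, adjusted p = 0.4680). In its list of 19 translesion synthesis genes 1 was called lower (5.26%, against 2.89% of all genes). With no limit on size 4 passed as higher and 1 as lower, and the median was 0.21. The called gene was ZRANB3, a fork remodeller of 334 kb with 67.2, 47.3 and 90.6 against 21.8, 27.4 and 38.4 (−1.19, SE 0.29), which stood at −0.96 without control replicate 3. Nucleotide excision repair, the main route for cisplatin adducts, had a median of 0.05 over 21 tested genes, with 3 higher and 2 lower by the test. GTF2H4 fell from 252, 290.7 and 249 to 119, 168 and 152 (−0.86, SE 0.22) and CETN2 from 602, 655 and 654 to 426.5, 467.6 and 403 (−0.56, SE 0.11). The 3′ end of GTF2H4 overlaps another gene on the same strand, so its reads could come from either. In base excision repair 2 of 24 tested genes passed as higher and 1 as lower, where 7.13% and 9.61% of all genes did, and MBD4 rose from 509.8, 474 and 389.9 to 658, 759 and 669.6 (0.61, SE 0.11).

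**Figure D4:**
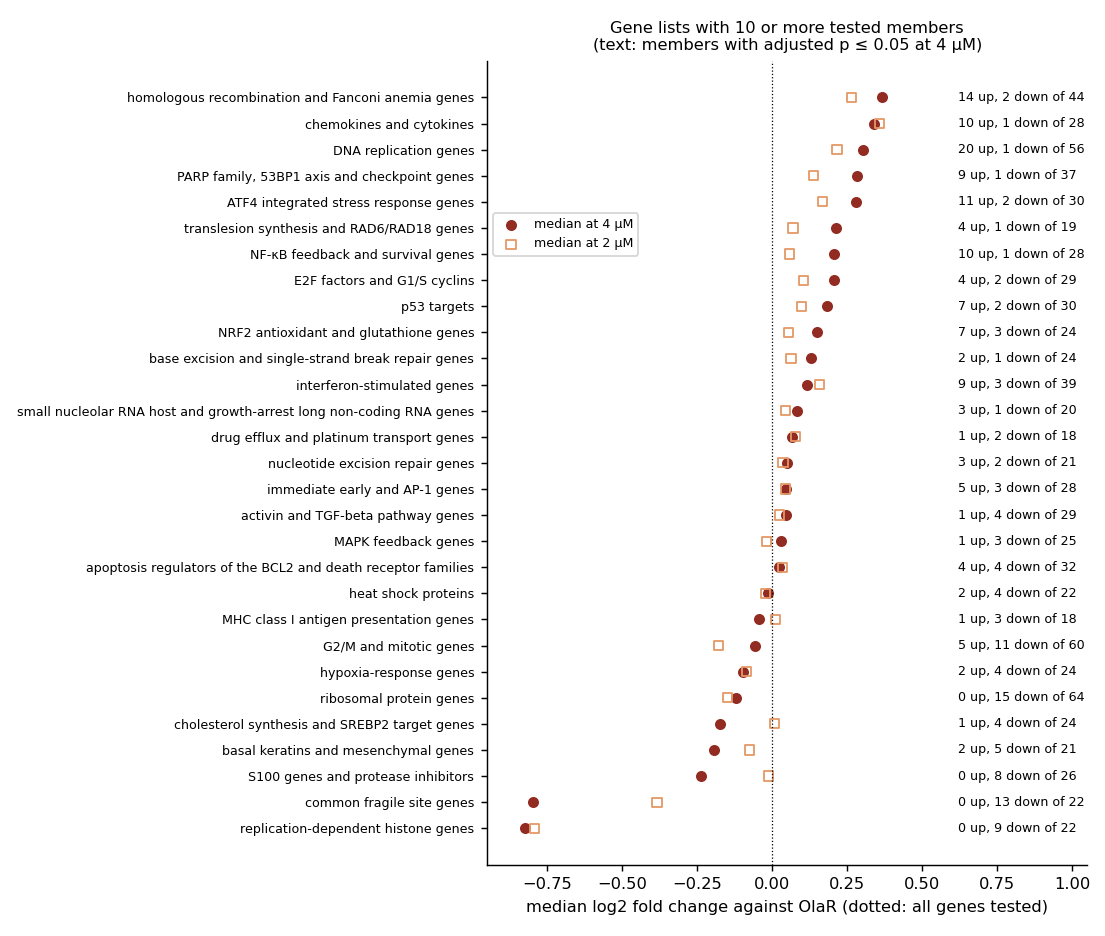
Median log2 fold change of each gene list with at least 10 tested members, at 4 µM (filled circles) and 2 µM cisplatin (open squares), beside the median of all genes tested (dotted line). The numbers count the members that passed the test at 4 µM in each direction, and the lowest medians were those of histone genes at −0.82 and fragile site genes at −0.80.

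Some targets of p53 rose. PMAIP1, which encodes the pro-apoptotic protein NOXA, had 65.2, 65.7 and 61.2 without cisplatin and 135.5, 149.8 and 121.5 with it (log2 fold change 1.07, SE 0.13, adjusted p = 4.22e-07). All treated libraries lay above all controls, and the value was 0.99 without replicate 2 at 4 µM. BCL2L2, a pro-survival member of the BCL2 family, had 30.3, 27.5 and 20.4 against 67.5, 58.2 and 41.4 (1.06, SE 0.26), and 0.90 without control replicate 3 or 0.91 without replicate 1 at 4 µM. Of 30 p53 targets tested, 1 was called higher (3.33%, against 0.929% of all genes), 7 passed as higher and 2 as lower (7.13% and 9.61% of all genes did), with a median of 0.18. Those that passed with a smaller rise were GADD45A, AEN, BBC3, CDKN1A, PPM1D and TNFRSF10B. Of 32 BCL2 and death receptor genes, 2 were called higher (6.25%), 4 passed as higher and 4 as lower, and the median was 0.02. BAX, a pro-apoptotic p53 target chosen after its values were seen, fell from 315, 317 and 283 to 144, 191.5 and 174 (−0.85, SE 0.17).

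Of 60 G2/M genes tested, 0 were called, 5 passed as higher and 11 as lower (7.13% and 9.61% of all genes did), and the median was −0.06. Most of the list did not pass the test. CCNB1, cyclin B1, went from 1816, 1647 and 1861 to 1055, 1185 and 1280 (log2 fold change −0.60, SE 0.09, adjusted p = 7.40e-06). PTTG1, the securin gene, went from 3266, 3540 and 3389 to 2203, 2456 and 2232 (−0.57, SE 0.09). Neither gene's groups overlapped. The list of replication-dependent histone genes, which also holds the replication-independent linker histone gene H1F0, had 22 tested members, of which 2 were called lower (9.09%, against 2.89% of all genes), 9 passed as lower (9.61% of all genes did) and 0 as higher. Their median was −0.82, beside −0.79 at 2 µM. HIST1H4C, an H4 histone gene, went from 12680, 12570 and 12230 to 5609, 6789 and 7154 (−0.95, SE 0.11). It stood at −1.02 without replicate 3 at 4 µM. H1F0 went from 1323, 1196 and 1303 to 699, 761 and 689 (−0.83, SE 0.09). HIST1H2AJ went from 122, 106 and 87.0 to 24.3, 41.0 and 32.4 (−1.68, SE 0.29), and HIST1H2AM from 82.8, 68.7 and 70.8 to 32.5, 37.6 and 31.3 (−1.11, SE 0.33), with an adjusted p of 0.0719 without control replicate 1, 0.0589 without replicate 1 and 0.0571 without replicate 3 at 4 µM. Histone genes exist in near-identical copies, so that the share of each copy is uncertain. By the study's methods the libraries were made with a 3′ mRNA kit. How fully it reads histone transcripts was not tested, so these counts may not follow their level.

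Several genes with high counts were lowered. S100A9, a calcium-binding alarmin, fell from 12330, 11650 and 13760 to 4709, 5830 and 6036 (log2 fold change −1.19, SE 0.12, adjusted p = 1.15e-08). TIMP3, an inhibitor of matrix metalloproteinases, fell from 11780, 11500 and 11790 to 5688, 6084 and 5686 (−1.01, SE 0.09, adjusted p = 6.01e-10). The treated libraries of both genes lay far below the controls, and TIMP3 stood at −0.99 without replicate 1 and −0.99 without replicate 3 at 4 µM. Of 26 S100 and protease inhibitor genes tested, 2 were called lower (7.69%, against 2.89% of all genes), 8 passed as lower (9.61% of all genes did) and 0 as higher, and the median was −0.24. The 3 tested metallothioneins, metal-binding proteins that can also bind platinum, all passed as lower. MT1X, whose 3′ end overlaps another gene on the same strand, fell most, from 1656, 1532 and 1591 to 956, 814.5 and 786 (−0.91, SE 0.09). MT2A, which had the highest counts of the 3, went from 39210, 39660 and 39100 to 27290, 26880 and 25960 (−0.56, SE 0.08). Of 64 ribosomal protein genes, 0 were called, 15 passed as lower (9.61% of all genes did) and 0 as higher (7.13%), and the median was −0.12. RPL39 went from 7302, 6926 and 6576 to 3507, 3749 and 3866 (−0.90, SE 0.16) and RPS9 from 5867, 5625 and 5600 to 3916, 3804 and 3863 (−0.56, SE 0.11).

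Some small RNAs were called lower. SNORD50A, a small nucleolar RNA encoded inside SNHG5, had 5335, 5003 and 4427 without cisplatin and 1616, 1467 and 2271 with it (log2 fold change −1.48, SE 0.28, adjusted p = 3.56e-04). SNAR-E, a small non-coding RNA transcribed by RNA polymerase III, had 2130, 1883 and 1674 against 413, 491 and 624 (−1.91, SE 0.25, adjusted p = 1.43e-06). The groups of both were far apart. SNAR-E has near-identical copies and SNORD50A lies within its host gene, so the source of their reads is uncertain. How fully the 3′ mRNA kit reads small RNAs was not tested, so counts of small RNAs may not follow their level. Among small nucleolar RNAs 12 of 77 tested were called lower (15.6%) and 2 higher, and among small nuclear RNAs 4 of 16 were called lower (25.0%) and 0 higher, beside 2.89% lower and 0.929% higher over all genes tested. Of 20 small nucleolar RNA host and growth-arrest genes, 3 passed as higher and 1 as lower, where 7.13% and 9.61% of all genes did. The host gene SNHG15 rose from 153, 139 and 135 to 258, 256 and 307 (0.93, SE 0.21), and SNHG12 rose from 196, 246 and 190.3 to 388, 303 and 317 (0.67, SE 0.16), though SNHG12 overlaps TRNAU1AP on the other strand.

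Interferon-stimulated genes were mixed. Of 39 tested, 3 were called higher (7.69%, against 0.929% of all genes) and 1 lower (2.56%, near the 2.89% of all genes), 9 passed as higher and 3 as lower, and the median was 0.12. IFI44 had 26.4, 46.8 and 65.0 without cisplatin and 101, 93.5 and 76.6 with it (log2 fold change 1.04, SE 0.20), and stood at 0.69 without control replicate 1 and 0.95 without replicate 1 at 4 µM. Its fold was also under the limit in edgeR (0.98) and DESeq2 (0.97). In limma with only the groups compared its adjusted p was 0.0636. IFI44L and XAF1 were scarcer, at 8.71, 2.59 and 6.35 against 13.7, 15.95 and 10.4 and at 8.71, 5.43 and 3.74 against 22.9, 13.9 and 9.46. The edgeR test gave them adjusted p-values of 0.128 and 0.0643, above the threshold. Leaving out a library did the same, with 0.122 for IFI44L without control replicate 2, and for XAF1 0.0916 without control replicate 3 and 0.125 without replicate 1 at 4 µM. IFI27 fell from 24.1, 15.2 and 20.7 to 8.55, 9.18 and 2.52 (−1.56, SE 0.39), with an adjusted p of 0.0730 in edgeR and of 0.0646 without replicate 3 at 4 µM. For MHC class I antigen presentation, 1 of 18 tested genes passed as higher and 3 as lower, beside 7.13% and 9.61% of all genes. CALR, the chaperone calreticulin, overlaps a gene on the other strand and went from 6408, 6376 and 6365 to 4709, 4732 and 4816 (−0.43, SE 0.07). PDIA3, which overlaps ELL3 on the other strand, went from 1603, 1660 and 1703 to 1205, 1216 and 1305 (−0.41, SE 0.10).

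Early response genes did not move as a block. Of 28 immediate early and AP-1 genes tested, 2 were called higher (7.14%, against 0.929% of all genes) and 1 lower (3.57%, against 2.89%), 5 passed as higher and 3 as lower, and the median was 0.05. EGR1, an early growth response factor, fell from 56.4, 64.6 and 53.5 to 27.2, 23.4 and 25.9 (log2 fold change −1.16, SE 0.14, adjusted p = 2.21e-07). The higher calls were ATF3 and FOS, and FOS had 0, 3 and 1 reads against 8, 7 and 1, so that its groups overlapped at the limit of detection. The call of FOS was lost in edgeR (adjusted p = 0.192) and in DESeq2 (adjusted p = 0.160). Of 25 MAPK feedback genes 1 passed as higher and 3 as lower, near the 7.13% and 9.61% of all genes. The EGFR ligand gene HBEGF rose from 108, 121 and 119 to 188, 192.5 and 173 (0.66, SE 0.14), and EGFR fell from 479, 514 and 492 to 353, 332.5 and 393 (−0.46, SE 0.09). Among 22 heat shock genes 2 passed as higher and 4 as lower, beside the same shares of all genes, with HSPH1 at 2140, 1971 and 1839 against 2808, 2610 and 2634 (0.44, SE 0.10). The endoplasmic reticulum chaperone gene HSPA5 went the other way, from 4958, 4792 and 4655 to 3021, 3060 and 2889 (−0.68, SE 0.08, adjusted p = 3.61e-07).

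Metabolic and signalling lists were mixed. Of 24 NRF2 and glutathione genes tested, 1 was called higher (4.17%, against 0.929% of all genes), 7 passed as higher and 3 as lower, and the median was 0.15. The called gene was OSGIN1, an oxidative stress response gene with 10.6, 7.48 and 9.56 against 23.9, 24.7 and 31.3 (log2 fold change 1.44, SE 0.37). Over all genes 7.13% passed as higher and 9.61% as lower. In cholesterol synthesis 1 of 24 genes passed as higher and 4 as lower, among them SREBF2, a transcription factor of the pathway, which went from 582, 577 and 542.5 to 457, 429.5 and 417 (−0.38, SE 0.10). In the activin and TGF-β list 1 of 29 passed as higher and 4 as lower, near those shares, among them ID1, a BMP target, with 2109, 1986 and 2162 against 1060, 1255 and 1181 (−0.84, SE 0.16) and SKI, a SMAD corepressor, with 893, 797 and 764 against 564, 514 and 527 (−0.61, SE 0.11). Of 24 hypoxia-response genes 2 passed as higher and 4 as lower, and the oxygen sensor EGLN1 rose from 226, 217 and 250.7 to 341, 317 and 293 (0.45, SE 0.12). The 3′ end of EGLN1 overlaps another gene on the same strand. Of 18 drug efflux and platinum transport genes 1 passed as higher and 2 as lower. SLC31A1, the copper transporter that also admits cisplatin, rose from 213, 219.5 and 202 to 293, 243 and 289 (0.37, SE 0.13, adjusted p = 0.0424), and the copper exporter ATP7A fell from 33.2, 53.7 and 50.3 to 14.5, 31.7 and 28.4 (−0.90, SE 0.28, adjusted p = 0.0236). ATP7A passed the fold limit without control replicate 1 (−1.11) and without replicate 2 (−1.10) or 3 (−1.02) at 4 µM.

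Of 21 basal keratin and mesenchymal genes tested, 1 was called higher (4.76%, against 0.929% of all genes), 2 passed as higher and 5 as lower (7.13% and 9.61% of all genes did), and the median was −0.19. SNAI1, a repressor that drives epithelial-mesenchymal transition, was scarce and had 9.05, 7.14 and 6.66 against 28.1, 18.3 and 21.4 (log2 fold change 1.44, SE 0.37, adjusted p = 0.00722). The basal keratin gene KRT17 fell from 3612, 3447 and 3733 to 1965, 2103 and 2186 (−0.79, SE 0.08). Of 6 tested epithelial genes 1 passed as higher and 2 as lower. CDH3, P-cadherin, was called lower with 2, 3 and 11 reads without cisplatin against 0, 2 and 1 with it, which is too few to give a fold.

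Several genes of the strongest rises belonged to no list. LONRF1 rose from 122.7, 82.1 and 118 to 246, 226 and 230.3 (log2 fold change 1.13, SE 0.17) and CCDC82 from 86.6, 98.2 and 97.0 to 253, 152.5 and 229.9 (1.13, SE 0.18). FOXRED1, an assembly factor of mitochondrial complex I, rose from 27.4, 24.4 and 21.4 to 50.3, 70.7 and 54.2 (1.22, SE 0.24). None of the 3 genes had overlapping groups. Among the genes called higher with the highest counts were UPF3B, a factor of nonsense-mediated decay, with 432, 446 and 369.9 against 1185, 737 and 706 (1.04, SE 0.18), and CCDC186 with 279.7, 264 and 270.1 against 633, 488 and 537 (1.01, SE 0.15). Replicate 1 at 4 µM was the highest library for UPF3B, CCDC186 and CCDC82. Without it the log2 fold change was 0.80 for UPF3B, 0.91 for CCDC186 and 0.99 for CCDC82. The fold was also under 2 without control replicate 3 for UPF3B (0.95) and without control replicate 2 for CCDC186 (1.00 after rounding) and LONRF1 (0.95).

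The step from 2 to 4 µM compares the high dose with the low dose, so that no library without cisplatin enters the fold change, while the spread comes from all 27 SUM1315 libraries. It lowered 113 genes (0.860% of 13133) and raised 10 (0.0761%) at the same thresholds. Genes called lower in the step had a median span of 284 kb, and 52 of the 467 genes of 300 kb or more were among them, with a median log2 fold change of −0.37 over the bin. GPHN, the gephyrin gene of 1227 kb, had the strongest fall among genes with a mean of at least 50 and no overlap, from 61.8, 74.0 and 63.0 at 2 µM to 9.09, 8.76 and 21.96 at 4 µM (log2 fold change −2.35, SE 0.29, adjusted p = 4.69e-06). BCAS3 went from 79.6, 74.1 and 98.7 to 20.1, 29.0 and 17.3 (−1.90, SE 0.19), GMDS from 107, 80.7 and 171 to 27.6, 37.2 and 26.7 (−1.88, SE 0.23) and SMYD3 from 98.3, 109 and 83.3 to 37.6, 23.6 and 19.4 (−1.86, SE 0.23). The high dose was below the low dose in every library of these 4 genes, as the rule that named them required. ZNF430, a zinc finger gene, was the 1 gene that rose by the same rule, from 46.7, 44.6 and 29.2 to 84.9, 104.7 and 82.2 (1.18, SE 0.30), with an adjusted p of 0.0602 without replicate 1 at 4 µM, 0.0962 without replicate 2 at 4 µM and 0.169 without replicate 3 at 2 µM.

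Several of the named rises did not pass the test in the step. CXCL1 had 2082, 2285 and 2130 at 2 µM, close to its values at 4 µM (log2 fold change 0.05, SE 0.11, adjusted p = 0.877). CHAC1 had 66.2, 75.5 and 69.7 at 2 µM with overlap (0.41, SE 0.18, adjusted p = 0.237), and BIRC3 had 422, 516 and 438 (0.30, SE 0.13, adjusted p = 0.205). S100A9, with 10160, 7938 and 11350 at 2 µM, and SLC7A5, with 1726, 1273 and 1972, did pass the step as lower, at −0.82 (SE 0.12) and −0.71 (SE 0.13). A step that misses the threshold does not show that the doses acted alike. The counts of the step depend on that shared spread. With the 6 libraries of the 2 doses alone limma called 0 genes, with a smallest adjusted p of 0.0516, and 101 higher and 279 lower genes had a fold of at least 2 at an unadjusted p under 0.05. On the recovered reads, edgeR called 2 higher and 58 lower, and DESeq2 called 4 higher and 78 lower. Without replicate 2 at 2 µM there were 24 higher genes, and without replicate 1 at 2 µM there were 75 lower ones.

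The response to 4 µM cisplatin was then set against that of parental SUM1315 cells in 8 µM olaparib, by a test of the difference between the responses. It was higher in OlaR cells for 262 genes (1.99%) and lower for 579 (4.41%), at an adjusted p of at most 0.05 with no limit on size. The parental libraries of this test were deeper, with 5532381 to 7157852 reads beside 3446613 to 4665505 in the OlaR libraries. The effect of depth on these counts was not tested. The count of higher responses was 138 without replicate 2 of the OlaR controls, 171 without replicate 1 of OlaR cells at 4 µM, 165 or 144 without replicate 1 or 2 of the parental controls, and 171 or 147 without replicate 1 or 3 of parental cells with cisplatin. With no filter on low values it was 160, and with only the groups compared 484. With parental cells free of olaparib in both arms, an alternative chosen after seeing the data, the counts were 1524 higher and 1861 lower. This test shares the 6 OlaR libraries with the comparison above, and resistance and the dose of olaparib cannot be told apart in it. Long genes stood out here too, since 127 of 467 genes of 300 kb or more had a lower response in OlaR cells and 1, picked out afterwards as ADGRL3, a higher one. The median response of these 467 genes was −0.16 in parental cells, beside −0.76 in OlaR cells. EXOC4 had 243, 238 and 273 without and 185, 164 and 195 with cisplatin in parental cells (log2 fold change −0.47, SE 0.19), so that its response differed by −2.31 (SE 0.26, adjusted p = 9.85e-07). CDK14 had 134, 97.0 and 159 against 102, 121 and 121 in parental cells, with a difference of −2.73 (SE 0.35). The long genes SYNE2, SH3KBP1 and MAST4, which did not pass in OlaR cells, passed as higher in parental cells, at 0.55 (SE 0.11), 0.34 (SE 0.09) and 0.48 (SE 0.08).

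CHAC1 rose in OlaR cells and not by the test in parental cells, which began from a higher level. Its parental values were 178.5, 182 and 148 without cisplatin and 183, 192 and 205 with it, and the responses differed by 1.53 (SE 0.25, adjusted p = 2.10e-04). FAM111B had 122.6, 81.8 and 117 against 138, 166 and 164 in parental cells, a difference of 1.16 (SE 0.31). It was the 1 replication gene with a higher response in OlaR cells, while 12 of the 56 tested had a lower one (4.41% of all genes did), and the list's median was 0.49 in parental cells beside 0.30 in OlaR cells. GCLM, a subunit of the enzyme that begins glutathione synthesis, had 559, 569 and 663 against 774, 814 and 660.3 in OlaR cells and 932, 1020 and 926 against 728, 745 and 681 in parental cells, a difference of 0.74 (SE 0.13). It thus passed as higher in one line and as lower in the other. Set against parental cells with cisplatin and no olaparib, a comparison chosen after seeing the data, the difference was 0.32 and did not pass (adjusted p = 0.0678). Of the NRF2 and glutathione list, 10 of 24 tested genes had a higher response in OlaR cells and 0 a lower one, beside 1.99% and 4.41% of all genes. NEAT1, a nuclear non-coding RNA, did not pass in OlaR cells at 2344, 2485 and 2439 against 2184, 2289 and 2239, while it fell from 4022, 4318 and 4203 to 1972, 2229 and 2341 in parental cells. The difference was 0.83 (SE 0.12). APPL1, an endosomal adaptor that overlaps ASB14 on the other strand, and RBM41, a splicing factor gene, also had higher responses in OlaR cells, by 1.33 (SE 0.22) and 1.16 (SE 0.21).

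By p-value, SNAR-E and INHBA led the genes with a lower response in OlaR cells. SNAR-E rose in parental cells, from 112, 85.9 and 154.9 to 502.5, 441 and 514, while it fell in OlaR cells, a difference of −3.98 (SE 0.35, adjusted p = 5.37e-09). INHBA, the activin A subunit, had 1359, 1321 and 1346 against 1766, 1672 and 1578 in OlaR cells (log2 fold change 0.32, SE 0.12, adjusted p = 0.0736) and 54.2, 59.1 and 43.0 against 217, 278 and 268.5 in parental cells, a difference of −1.96 (SE 0.17). HIST1H4C and H1F0 fell in OlaR cells and rose in parental cells, with differences of −1.499 (SE 0.16) and −1.20 (SE 0.13). The histone list as a whole had a median of 0.27 in parental cells, and 5 of its 22 tested genes had a lower response in OlaR cells (4.41% of all genes did). SMOC1, a matricellular protein gene of 153 kb, had 3482, 3499 and 3503 against 1630, 2092 and 1968 in OlaR cells and 1887, 2110 and 1541 against 2215, 2669 and 2933 in parental cells, a difference of −1.39 (SE 0.16). Set against parental cells with cisplatin and no olaparib, a comparison chosen after seeing the data, this difference turned to 0.22 and did not pass. CXCL1 rose in both lines and less so in OlaR cells, with 314, 329.7 and 351 against 1586, 1623 and 1606 in parental cells and a difference of −1.27 (SE 0.16). For BIRC3 the difference was −0.47 (SE 0.18, adjusted p = 0.108), for CCL20 −0.06 (SE 0.40) and for PMAIP1 −0.05 (SE 0.18), none of which passed the test.

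**Figure D5:**
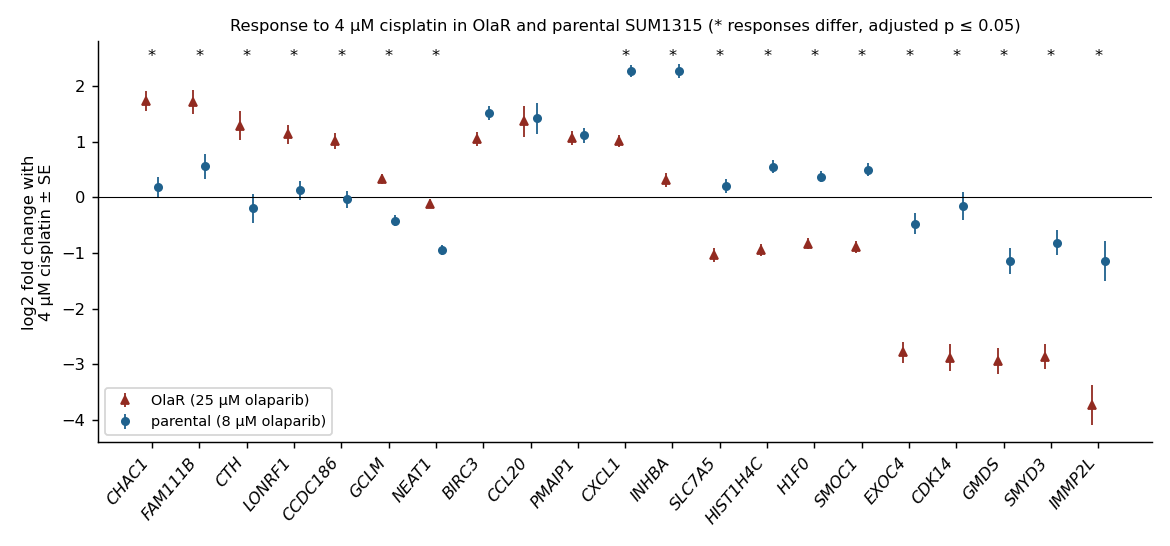
Log2 fold change with 4 µM cisplatin and its standard error for 21 named genes in OlaR cells (25 µM olaparib, triangles) and in parental cells (8 µM olaparib, circles), 3 libraries in each group. CHAC1 rose by 1.73 in OlaR cells beside 0.19 in parental cells, and the long genes from EXOC4 to IMMP2L fell further in OlaR cells.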

How the data were processed

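RNA was sequenced from 54 libraries of SUM1315 and MDA-MB-468 cells, and the 27 MDA-MB-468 libraries were not used here. Per the submitters' processing notes and the study's methods, the authors used CASAVA 1.8.2, STAR, HTSeq and edgeR. The unit of the deposited table is a signal, reads per gene adjusted by the authors to a common library size, which are not whole numbers. Of 741690 values, 741690 gave whole reads that recalculate the deposited value within a relative difference of 1e-06. The study's methods name Lexogen's QuantSeq kit (FWD), a 3′ mRNA kit, for the libraries. The strand setting of the counting is not given in the sources used here, so overlapping genes on opposite strands are uncertain, ERBB2 among them. The 3′ ends of GTF2H4, MT1X, EGLN1, HIST1H2AM and CD68 overlap another gene on the same strand, so these are uncertain under any setting. The authors' differential expression tables hold their fold changes and p-values against untreated parental cells and were not used.

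As the values are not whole, limma 3.58.1 (R 4.3.3, intensity trend) was fitted to log2(value + 1) of the 27 SUM1315 libraries in 9 groups, with Benjamini-Hochberg adjustment over 13133 of 27470 genes, those that reached 10 or more in 3 or more libraries. A log2 fold change on this scale understates the change of scarce genes. A gene was called at an adjusted p of at most 0.05 and a fold change of at least 2, while passing the test refers to the adjusted p alone. On the recovered reads, edgeR 4.0.16 called 70 genes higher and 274 lower at 4 µM, and DESeq2 1.42.0 called 79 and 313.

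Genes were named by rule: the 12 strongest called rises and falls with a mean of at least 50 and no overlap, up to 4 called members of each list by p or else its 1 or 2 leading members, genes the study names, the 5 differences of response with the smallest p in each direction and a mean of at least 50, the 4 strongest called changes in each direction of the dose step with the same mean and no overlap, the 5 most abundant called genes in each direction and the 4 most abundant genes of 300 kb or more. Members and lists were chosen with earlier results of these data known. Positions are from RefSeq on GRCh38.p14, and of 27470 row names 25201 matched a current symbol and 1213 an older one. None of the 28 listed mitochondrially encoded transcripts was found in the table. Alternatives covered the pseudocount, the filter, the scaling, the tool, the libraries in the fit, the fold limit and each replicate left out.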

Additional observations from a re-analysis of the deposited data

Results flagged for a closer look

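The response to 4 µM cisplatin differed between OlaR cells in 25 µM olaparib and parental cells in 8 µM olaparib, higher in OlaR cells for 262 genes and lower for 579. Among the genes named by rule it was higher in OlaR cells, as a log2 difference, for APPL1 by 1.33, CCDC186 1.052, CHAC1 1.53, CTH 1.49, FAM111B 1.16, GCLM 0.74, LONRF1 1.00, NEAT1 0.83, OSGIN1 1.97, RBM41 1.16 and SNAI1 1.77.

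It was lower in OlaR cells for long genes, with BCAS3 at −2.09, CADPS2 −1.99, CDK14 −2.73, DPYD −2.21, EXOC4 −2.31, GMDS −1.79, GPHN −2.05, IMMP2L −2.59, MAST4 −0.49, PARD3B −2.63, PTPRG −0.98, SCFD2 −2.37, SH3KBP1 −0.43, SMYD3 −2.05, SND1 −0.56, SYNE2 −0.72, THSD4 −1.81 and TTC28 −2.48. Among shorter genes it was lower for CALR at −0.41, CXCL1 −1.27, EGFR −0.72, EGR1 −1.10, FANCC −1.49, GTF2H4 −1.20, H1F0 −1.20, HIST1H2AJ −2.36, HIST1H2AM −1.51, HIST1H4C −1.499, HSPA5 −0.41, INHBA −1.96, MT1X −0.62, RPL39 −1.34, RPS9 −0.73, SLC7A5 −1.24, SMOC1 −1.39, SNAR-E −3.98, SNORD50A −2.54 and VEGFA −0.50. Genes named after their values were seen, or as markers, also differed, with CXCL8 at −1.33, BAX at −1.21 and KRT17 at −0.71, and ADGRL3 higher by 2.82.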

How the results depend on the processing

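The 122 genes higher at 4 µM became 70 with edgeR and TMM scaling, 67 with edgeR and DESeq2 size factors, 79 with DESeq2, 937 with no fold limit and 24 with a fold limit of 4. Leaving out 1 library gave 77 to 114. The 380 lower genes became 1262 with no fold limit and 113 with a fold limit of 4, and 325 to 364 with 1 library left out. A replicate block for the pairing of numbers gave 122 and 379.

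The 10 genes higher at 4 than at 2 µM became 6 with a pseudocount of 5, 30 with no filter, 6 with a filter of 30, 0 with only the groups compared, 2 and 2 with edgeR, 4 with DESeq2, 45 with no fold limit and 3 with a fold limit of 4, and 7 to 24 with 1 library left out. The 113 lower genes became 0 with only the groups compared, 58 and 61 with edgeR, 297 with no fold limit and 27 with a fold limit of 4, and 75 to 117 with 1 library left out.

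The 262 genes with a higher response in OlaR than in parental cells became 160 with no filter, 484 with only the groups compared and 61 with a difference of at least 1, and 138 to 224 with 1 library left out. The 579 lower ones became 274 with a difference of at least 1. With parental cells free of olaparib, an alternative chosen after seeing the data, the counts were 1524 and 1861, and the difference of SMOC1 reversed from −1.39 to 0.22 (adjusted p = 0.325).

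The percentage of genes of 300 kb or more called lower, 33.0, became 19.2 with no filter and 21.4 from 200 kb. Their median, −0.76, became −0.68 with a pseudocount of 5, −0.47 with no filter, −0.80 with edgeR and DESeq2 size factors, −0.81 with DESeq2 and −0.50 from 200 kb, and −0.80 to −0.75 with 1 library left out.

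Of 1972 further settings of single genes, 1864 gave the same call, 101 a weaker one, 6 a stronger one and 1 the reverse. The same call includes genes that were not called and stayed so. Of the 57 named genes called at 4 µM, 31 were called in every setting. Among list counts 75 of 1056 moved, and among list medians 64 of 528. The cause of these shifts was not tested.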
